A study of Mus musculus with 8 samples.

Results

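The genes described here are 39 genes of the interferon response and of MHC class I antigen presentation, taken by symbol from a table of 22518 genes measured in mouse heart. All 39 symbols had a row in the table. The samples were whole hearts taken at postnatal day 12 from C57BL/6 mice: 4 wild type littermate libraries and 4 libraries labelled as endothelial knockout of PHD2/3. PHD2 and PHD3, prolyl hydroxylases encoded by Egln1 and Egln3, mark hypoxia-inducible factors for degradation when oxygen is present. The transgene that drives the deletion is not given in the sources used here. Whether every library is a different mouse is not stated in the labels either, and the p-values below therefore speak only of the variation among these libraries.

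Interferons are secreted signals that cells release on sensing viral or misplaced nucleic acid. Type I interferons bind IFNAR1 and IFNAR2 and act through the kinases JAK1 and TYK2 on a complex with STAT2 and IRF9 that binds interferon-stimulated response elements in promoters, while interferon gamma acts through its own receptor and induces IRF1. The induced genes encode antiviral effectors, sensors of nucleic acid, more of the signalling factors themselves, and the machinery that cuts, transports and presents peptides on MHC class I molecules. In heart tissue such genes are expressed at a resting level by endothelial cells, fibroblasts and macrophages as well as by cardiomyocytes.

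The core of the response element was looked up in the promoters of these genes, because many interferon-stimulated genes are known to be induced through it. The letters searched were GAAA, any pair of bases, then GAAA, on both strands and with overlapping matches included, in the 250 bases before each start site in the RefSeq promoters of build GRCm38.p6. Promoters were listed there for 30 of the 39 genes. The motif was found in 11 of their 37 promoters and in 2.98% of all 32851 promoters of the same length. Stretches of 5 promoters are shown, 5′ to 3′ along the gene's strand, with each match in capitals: from Ifit1, which rose in the knockout hearts, from Rsad2, which fell, and from Isg15, B2m and Stat2, which did not pass the test.
Ifit1: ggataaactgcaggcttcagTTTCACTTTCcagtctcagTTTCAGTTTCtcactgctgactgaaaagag
Rsad2: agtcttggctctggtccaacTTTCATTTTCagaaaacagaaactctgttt
Isg15: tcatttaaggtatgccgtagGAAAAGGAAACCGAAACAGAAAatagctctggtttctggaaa
B2m: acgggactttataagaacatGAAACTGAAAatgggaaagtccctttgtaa
Stat2: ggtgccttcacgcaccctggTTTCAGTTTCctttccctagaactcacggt
The Ifit1 stretch lies at chr19:34640765-34640833 on the plus strand and holds 2 matches, the first starting 104 bases before the start site. The Rsad2 stretch lies at chr12:26456543-26456592 on the minus strand, with its match starting 120 bases before the start site. The Isg15 stretch (chr4:156200855-156200916, minus strand) holds 3 overlapping matches. The B2m stretch lies at chr2:122147528-122147577 and the Stat2 stretch at chr10:128270256-128270305, both on the plus strand. By outcome, the motif was in a promoter of 1 of 5 raised genes, 2 of 4 lowered genes (Rsad2 and Gbp2) and 8 of 21 genes that were not called, among those with a listed promoter. A second motif was also searched, TTC, any 3 bases, then GAA. It was found in 6 of the 37 promoters and in 7.02% of all promoters. A match to either is a description of the letters and was not tested as a binding site.

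The interferon genes did not move as a block. Of the 39 genes, 35 had a mean of at least 1 FPKM (fragments mapped to a gene, scaled by transcript length and by library total) over the 8 samples and were tested. In the knockout hearts 7 of the 35 were raised at an adjusted p under 0.05 (Irf7, Ifi27l2a, Lgals3bp, Ifit1, Ifit2, Trim25 and Usp18), against 6.15% of the 11390 genes tested, and 4 were lowered (Irf1, Rsad2, Psmb9 and Gbp2), against 6.01%. The other 24 did not pass the test. Log2 changes were above 0 for 22 and below 0 for 13, with a median of 0.09 beside -0.01 over all genes tested. Every knockout value lay above every wild type value in 9 of the tested genes, where 10.3% of all tested genes did so, and below it in 4, where 10.4% did so. These shares describe the list and are no test of it. Oas1a passed the filter through its knockout level alone, since its wild type mean was 0.869 FPKM. In what follows, levels are FPKM with their mean ± SD over n = 4 libraries, a fold is the ratio of the group means, and a log2 change is knockout minus wild type on the log2(FPKM + 1) scale with its SE. That scale makes the changes of low genes look smaller.

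**Figure D1:**
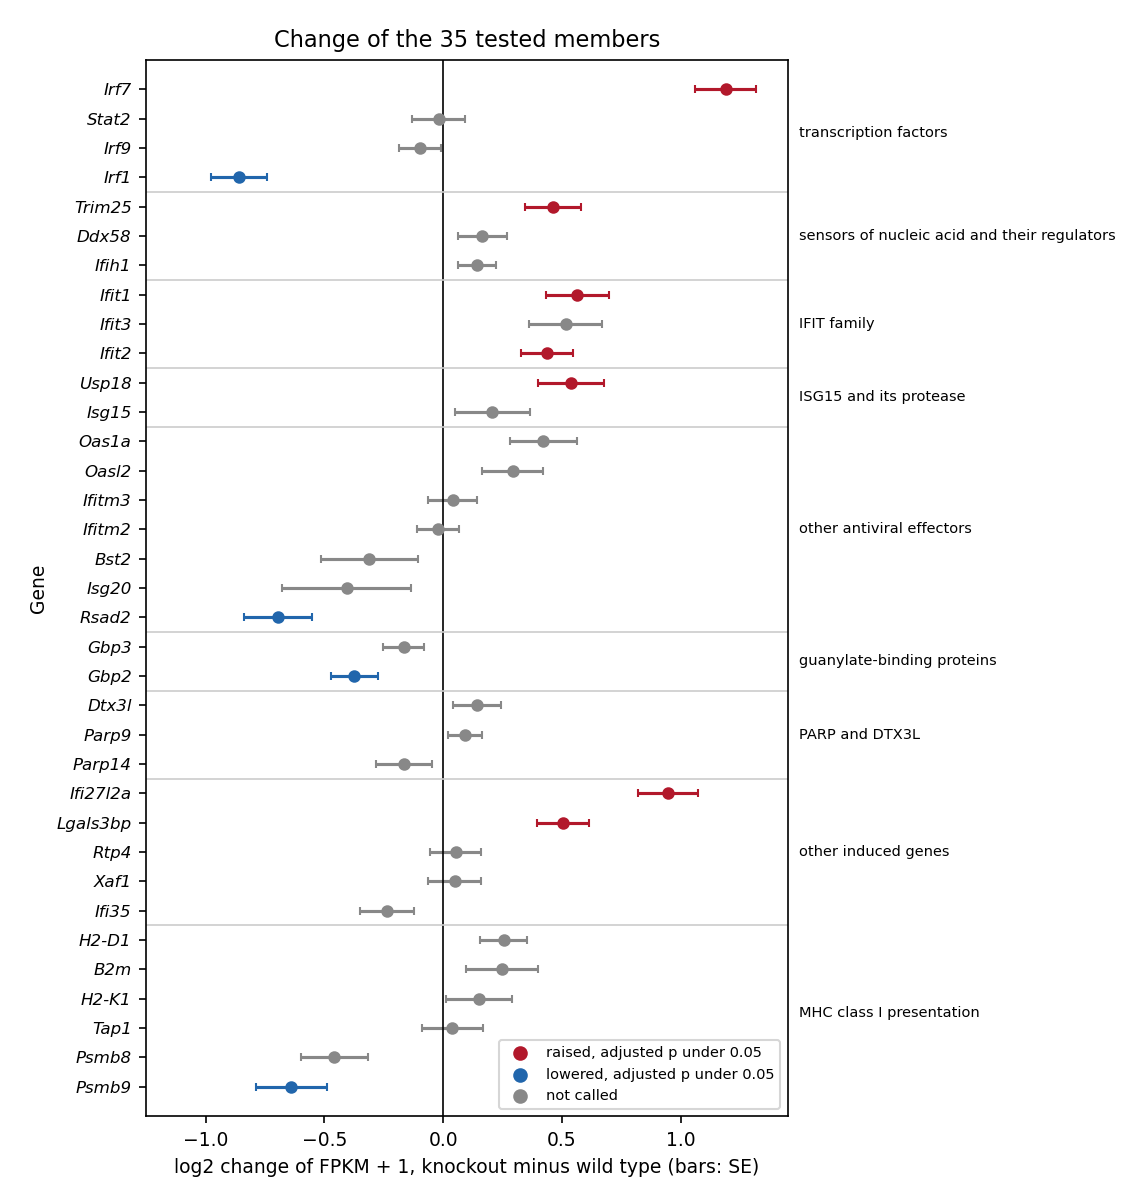
Log2 change of FPKM + 1 in knockout minus wild type hearts on the x axis for the 35 tested genes, grouped by role; points are estimates from 4 against 4 samples and bars are SE, red where raised, blue where lowered and grey where not called. Irf7 at 1.19 and Irf1 at -0.86 are at opposite ends of the same group, and the genes of MHC class I presentation lie on both sides of 0.

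The libraries were checked against their labels first. Egln1 measured 54.2, 54.4, 57.9 and 45.2 FPKM in the wild type and 58.4, 55.0, 52.6 and 63.5 FPKM in the knockout libraries (adjusted p = 0.442), and Egln3 measured 28.2 ± 8.83 against 40.8 ± 8.58 FPKM (adjusted p = 0.132). Neither targeted gene was lower, whole-heart values do not isolate the endothelium, and the genotype rests on the labels alone. Summed FPKM of 10 cardiomyocyte markers ran from 36534 to 48957 and of 12 endothelial markers from 685 to 788, so the tissue label is met in every library. The endothelial sum does not speak for single markers. Of the 12, 2 were raised (Vwf and Eng) and 2 lowered (Tie1 and Tek). These shares were 16.7% each, beside 6.15% and 6.01% of all tested genes. Wild type replicate 4 stood apart in lung and airway markers, whose 10 genes summed to 1872 FPKM there and to between 0.439 and 1.38 FPKM in the other 7 libraries; Scgb1a1, of airway secretory cells, was at 1030.4 FPKM there and at most 0.323 FPKM elsewhere, Scgb3a1 was at 544 FPKM there and Scgb3a2 at 206 FPKM, and the library number of knockout replicate 4 lies outside the run of the others. Macrophage and monocyte markers summed to 188 to 211 FPKM in wild type and 215 to 243 FPKM in knockout hearts over 20 genes. Lyz2, the most abundant of them, went from 41.2 ± 2.74 to 65.9 ± 9.07 FPKM, so the separation of these sums does not speak for the other markers. Of the 17 tested, 1 was raised (Lyz2) and 0 were lowered, beside 6.15% and 6.01% of all tested genes. Every knockout value lay above every wild type value in 1 of the 17 (Lyz2) and below it in 1 (Aif1), where 10.3% and 10.4% of all tested genes did so. Among those not tested, Itgam lay above and Ccr2 below. Csf1r and C1qa overlapped between the groups. Lymphocyte and dendritic cell markers summed to 3.69 to 6.89 FPKM in wild type and 1.41 to 5.26 FPKM in knockout hearts, with 16 of 18 genes under 1 FPKM in every library, and neutrophil markers to 9.19 to 28.9 and 4.21 to 8.43 FPKM. The part of these cells in the results below was not tested. In whole hearts, fewer cells of a type and less RNA per cell cannot be told apart.

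Of the 4 transcription factors, Irf7 rose, Irf1 fell, and Stat2 and Irf9 did not pass the test. Irf7, the factor that amplifies type I interferon production (chromosome 7, 141262706 to 141266481 in mm10), measured 2.65, 2.87, 2.77 and 3.51 FPKM in the wild type libraries (replicates 1 to 4, an order kept throughout) and 9.38, 6.29, 7.35 and 9.27 FPKM in the knockout libraries. All knockout values stood above all wild type values, a 2.74-fold rise (log2 change 1.19 ± 0.13, adjusted p = 0.00105). Irf1, an interferon gamma responsive activator of MHC class I and proteasome genes (chromosome 11, 53770014 to 53778374), measured 8.90, 10.1, 9.21 and 10.3 FPKM in the wild type and 6.44, 4.38, 4.49 and 4.32 FPKM in the knockout libraries. It fell 1.96-fold without overlap (log2 change -0.86 ± 0.12, adjusted p = 0.00256), and knockout replicate 1 was the least reduced of the 4 knockout libraries. Both calls were kept under each of the 8 omissions of 1 library and each other alternative run.

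Neither subunit of the type I signalling complex among the members passed the test. Stat2 (chromosome 10, 128270559 to 128292849) measured 2.95, 3.54, 2.98 and 2.84 FPKM in the wild type and 3.85, 3.03, 2.62 and 2.67 FPKM in the knockout libraries, and the groups overlapped (log2 change -0.02 ± 0.11, adjusted p = 0.927). Irf9, the DNA-binding subunit (chromosome 14, 55603571 to 55610030), measured 6.25, 7.14, 6.98 and 7.48 FPKM in the wild type and 7.33, 5.85, 6.44 and 6.18 FPKM in the knockout libraries, also with overlap (log2 change -0.10 ± 0.09, adjusted p = 0.494). For both genes the highest knockout value was that of replicate 1.

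**Figure D2:**
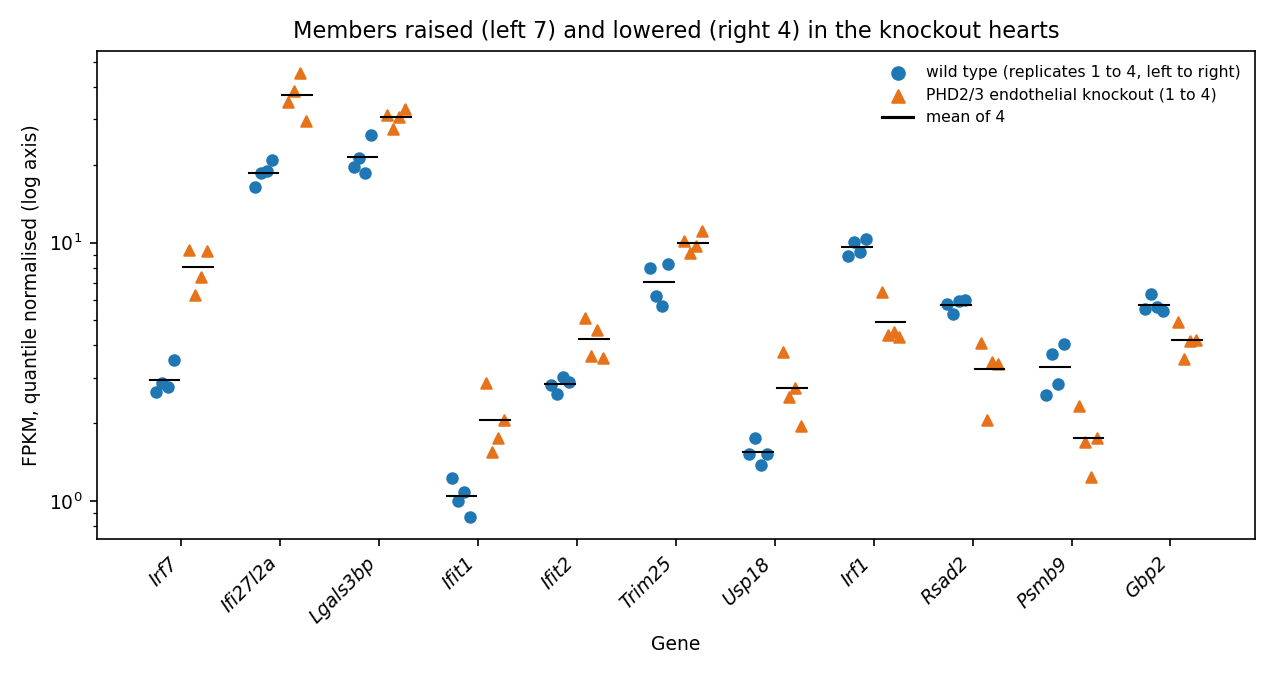
FPKM on a log axis of the 7 raised genes (left) and 4 lowered genes (right); each blue circle is a wild type and each orange triangle a knockout library, in replicate order from left to right, and black lines are means of 4. No gene shown has overlapping groups, and the mean of Irf7 goes from 2.95 to 8.07 FPKM while that of Irf1 goes from 9.62 to 4.91 FPKM.

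Of the 3 genes of the IFIT family, which bind foreign RNA and block its translation, 2 rose in the knockout hearts and Ifit3 did not pass the test. Their start sites lie within 90177 bases on chromosome 19. Ifit1 (34640871 to 34650009) measured 1.22, 0.998, 1.09 and 0.869 FPKM in the wild type and 2.87, 1.55, 1.75 and 2.07 FPKM in the knockout libraries, a 1.97-fold rise without overlap (log2 change 0.57 ± 0.13, adjusted p = 0.0264). Ifit2 (34550694 to 34576419) measured 2.82, 2.60, 3.02 and 2.88 FPKM in the wild type and 5.12, 3.64, 4.57 and 3.56 FPKM in the knockout libraries, a 1.49-fold rise without overlap (log2 change 0.44 ± 0.11, adjusted p = 0.0322). Ifit3 (34583531 to 34588731) measured 2.88, 2.29, 2.48 and 3.72 FPKM in the wild type and 5.94, 3.65, 4.60 and 3.85 FPKM in the knockout libraries, and wild type replicate 4 overlapped the knockout group (log2 change 0.52 ± 0.15, adjusted p = 0.0548). Knockout replicate 1 was the highest library for all 3. Ifit3 was called without wild type replicate 4 (adjusted p = 0.0435), without both replicates 4 (0.0344) and with array weights (0.0174). The call of Ifit1 was lost without wild type replicate 2, 3 or 4 (adjusted p = 0.0793, 0.0575 and 0.0712). The call of Ifit2 was lost on leaving out wild type replicate 1, 2, 3 or 4, or knockout library 3 (0.0648, 0.0985, 0.0591, 0.0676 and 0.0806). Ifit1 was also lost without both replicates 4 (0.0856) and Ifit2 with no filter (0.0508). Their paralogs in the same cluster, listed as Gm14446 (Ifit1bl1) and I830012O16Rik (Ifit3b), rose 1.83-fold (from a wild type mean of 0.819 ± 0.128 FPKM) and 1.70-fold (to a knockout mean of 1.53 ± 0.283 FPKM) (adjusted p = 0.0277 and 0.0393). Both wild type means (0.902 FPKM for I830012O16Rik) were under the filter, so these paralogs were tested through their knockout level alone; with no filter adjusted p was 0.0362 for Gm14446 and 0.05003 for I830012O16Rik, which lost its call. Reads of such close copies could have been divided between them by the authors' quantification, so the levels of single paralogs are uncertain. The call of Gm14446 was lost on leaving out wild type replicate 2, 3 or 4, or knockout library 3 (up to 0.0862). That of I830012O16Rik was lost in 7 of 8 omissions, with the exception of knockout replicate 4 (at most 0.121, reached on leaving out wild type replicate 2), and with the level of the Y-linked gene Ddx3y as a covariate (0.0588). Without both replicates 4 that of Gm14446 was lost too (0.0665).

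Usp18 and Isg15 belong to the system that attaches the ubiquitin-like protein ISG15 to other proteins. Usp18, the protease that removes ISG15 and also damps signalling at IFNAR2 (chromosome 6, 121245906 to 121270917), measured 1.52, 1.75, 1.38 and 1.52 FPKM in the wild type and 3.78, 2.52, 2.74 and 1.95 FPKM in the knockout libraries. It rose 1.78-fold without overlap (log2 change 0.54 ± 0.14, adjusted p = 0.0356), a call lost in 6 of 8 omissions, with the exceptions of knockout replicates 1 and 4 (at most 0.0848, reached on leaving out wild type replicate 3), and with no filter (0.0596). Isg15 itself (chromosome 4, 156199424 to 156200818) measured 5.40, 6.62, 6.76 and 6.19 FPKM in the wild type and 10.5, 6.56, 7.57 and 5.52 FPKM in the knockout libraries. Knockout replicates 2 and 4 lay within the wild type range, and the gene did not pass the test (log2 change 0.21 ± 0.16, adjusted p = 0.413).

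Among sensors of nucleic acid and their regulators, Trim25 was the gene that was called. Trim25, a ubiquitin ligase that activates RIG-I (chromosome 11, 88999376 to 89020293), measured 7.95, 6.22, 5.68 and 8.25 FPKM in the wild type and 10.1, 9.09, 9.68 and 11.1 FPKM in the knockout libraries, a 1.42-fold rise without overlap (log2 change 0.46 ± 0.12, adjusted p = 0.0348). The call was lost on leaving out wild type replicate 2 or 3, or knockout library 2, 3 or 4 (0.106, 0.0786, 0.0561, 0.0693 and 0.0590). It was also lost with no filter (0.0594) and with the Ddx3y covariate (0.0554). Ddx58, which encodes RIG-I, averaged 4.30 ± 0.145 FPKM without and 4.99 ± 0.885 FPKM with the knockout, and Ifih1, which encodes MDA5, averaged 1.91 ± 0.161 against 2.21 ± 0.0832 FPKM (adjusted p = 0.321 and 0.265). Ifih1 values did not overlap between the groups. The regulator Dhx58 and the Z-nucleic acid sensor Zbp1 had means under 1 FPKM and were not tested with the others. Zbp1 is shown per library after its values were seen. It measured 0.284, 0.0764, 0.0563 and 0.244 FPKM in the wild type and 1.07, 0.423, 0.449 and 0.472 FPKM in the knockout libraries, without overlap, and without the filter it had a log2 change of 0.45 ± 0.13 (adjusted p = 0.0813). Dhx58, at 0.711 ± 0.235 and 1.05 ± 0.322 FPKM, overlapped between the groups.

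Of the other antiviral effectors, Rsad2 was lowered and none was raised. Rsad2, which encodes viperin, an enzyme that makes a chain-terminating nucleotide (chromosome 12, 26442746 to 26456452), measured 5.78, 5.27, 5.97 and 6.02 FPKM in the wild type and 4.08, 2.06, 3.44 and 3.39 FPKM in the knockout libraries. It fell 1.78-fold without overlap (log2 change -0.70 ± 0.14, adjusted p = 0.0151), and the call was kept in every omission. Cmpk2, the nucleotide kinase gene whose start site lies 12752 bases away on the other strand, was named after its values were seen. It measured 3.55, 3.55, 3.98 and 3.43 FPKM in the wild type and 2.93, 1.73, 2.63 and 2.51 FPKM in the knockout libraries, a 1.48-fold fall without overlap (log2 change -0.44 ± 0.12, adjusted p = 0.0403). For this neighbouring pair the lowest library was the same, knockout replicate 2. The call of Cmpk2 was lost in 7 of 8 omissions, with the exception of knockout replicate 1 (at most 0.0998, reached on leaving out wild type replicate 2), with no filter (0.0642), without both replicates 4 (0.0803) and with the Ddx3y covariate (0.0675).

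Oas1a, a synthetase of the second messenger that activates RNase L, measured 0.907, 0.942, 0.861 and 0.767 FPKM in the wild type and 2.37, 1.31, 1.33 and 1.16 FPKM in the knockout libraries. The groups did not overlap, but the change did not pass the test (log2 change 0.42 ± 0.14, adjusted p = 0.0777), and knockout replicate 1 stood well above the other 3. Oas1a was called with array weights (0.0373) and with the Ddx3y covariate (0.0288). Its paralog Oasl2 averaged 4.70 ± 0.806 against 5.98 ± 1.02 FPKM (adjusted p = 0.166). The membrane proteins encoded by Ifitm2 and Ifitm3, which block viral entry and were among the most abundant of the 39, lay at 139 ± 12.4 and 136 ± 10.6 FPKM and at 107 ± 9.91 and 111 ± 13.1 FPKM in wild type and knockout hearts (adjusted p = 0.904 and 0.833). Bst2, which tethers budding virions, ran from 26.4 to 32.1 FPKM in the wild type and from 13.9 FPKM in replicate 4 to 29.2 FPKM in the knockout libraries (adjusted p = 0.342). The exonuclease gene Isg20 spread from 1.78 to 7.19 FPKM within the wild type group, more than between the groups (4.40 ± 2.21 and 2.81 ± 0.354 FPKM, adjusted p = 0.349), and was called without wild type replicate 1 (adjusted p = 0.0384). The dynamin-like GTPase genes Mx1 and Mx2 lay under 1 FPKM in every library and were not tested with the others. Mx1 is shown per library after its values were seen. It measured 0.198, 0.200, 0.0670 and 0.209 FPKM in the wild type and 0.418, 0.281, 0.311 and 0.603 FPKM in the knockout libraries, without overlap (adjusted p = 0.0867 without the filter), and Mx2 overlapped (0.415 ± 0.0599 and 0.460 ± 0.138 FPKM).

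The guanylate-binding protein genes Gbp2 and Gbp3, GTPases that attack the membranes around intracellular pathogens, had lower means in the knockout hearts. Gbp2 (chromosome 3, 142620602 to 142638008) measured 5.55, 6.32, 5.63 and 5.42 FPKM in the wild type and 4.95, 3.54, 4.17 and 4.20 FPKM in the knockout libraries. It fell 1.36-fold without overlap (log2 change -0.37 ± 0.10, adjusted p = 0.0367), a call lost in 7 of 8 omissions, with the exception of knockout replicate 1 (at most 0.115, reached on leaving out wild type replicate 2). Gbp3 averaged 4.56 ± 0.491 against 3.94 ± 0.241 FPKM and was not called (adjusted p = 0.235). Of the paralogs outside the 39 genes, Gbp5 fell 2.03-fold to 0.871 ± 0.352 FPKM (adjusted p = 0.0336) and Gbp6 rose 2.35-fold to 2.66 ± 1.11 FPKM (adjusted p = 0.0268). The call of Gbp5 was lost on leaving out wild type replicate 1, 2 or 3, or knockout library 2 or 3 (0.0645, 0.1001, 0.0835, 0.0858 and 0.0824), and that of Gbp6 on leaving out wild type replicate 1, 2, 3 or 4, or knockout library 2 (up to 0.0730). Gbp5 was tested through its wild type level alone. With no filter the calls of Gbp2, Gbp5 and Gbp6 were lost (0.0544, 0.0544 and 0.0516), and that of Gbp2 also without both replicates 4 (0.0737) and with the Ddx3y covariate (0.0504). These genes are close paralogs whose reads could have been divided between copies.

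Ifi27l2a and Lgals3bp rose among the remaining induced genes. Ifi27l2a, which encodes a small hydrophobic membrane protein (chromosome 12, 103442167 to 103443680), measured 16.4, 18.6, 18.9 and 20.9 FPKM in the wild type and 35.0, 38.8, 45.4 and 29.7 FPKM in the knockout libraries. It rose 1.99-fold without overlap (log2 change 0.95 ± 0.13, adjusted p = 0.00246) and was called in every omission. Here knockout replicate 3, not replicate 1, was the highest library. Lgals3bp, a secreted galectin-3 binding glycoprotein (chromosome 11, 118392751 to 118402092), measured 19.6, 21.2, 18.6 and 26.2 FPKM in the wild type and 31.2, 27.7, 30.6 and 33.0 FPKM in the knockout libraries, a 1.43-fold rise without overlap (log2 change 0.51 ± 0.11, adjusted p = 0.0183). Its call was lost without wild type replicate 2 or 3 (0.0574 and 0.0513). Ifi35 (10.2 ± 1.37 and 8.53 ± 1.20 FPKM), Xaf1 (9.78 ± 1.51 and 10.1 ± 0.854 FPKM) and Rtp4 (4.14 ± 0.347 and 4.36 ± 0.716 FPKM) overlapped between the groups and were not called. The same held for the ADP-ribosyltransferase genes Parp9 (6.57 ± 0.158 and 7.08 ± 0.477 FPKM) and Parp14 (2.87 ± 0.255 and 2.48 ± 0.524 FPKM) and for Dtx3l (2.81 ± 0.401 and 3.19 ± 0.323 FPKM), the ubiquitin ligase partner of PARP9. Adjusted p of these genes ran from 0.199 for Ifi35 to 0.806 for Xaf1. Parp9 and Dtx3l overlap on opposite strands, so their shared reads could not be separated if strand was not used.

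Of the 6 genes of MHC class I presentation among the members, Psmb9 was lowered and 5 did not pass the test. Psmb9, a catalytic subunit of the immunoproteasome that replaces a constitutive subunit when interferon is present (chromosome 17, 34181987 to 34187764), measured 2.56, 3.71, 2.84 and 4.04 FPKM in the wild type and 2.33, 1.70, 1.24 and 1.75 FPKM in the knockout libraries. It fell 1.88-fold without overlap (log2 change -0.64 ± 0.15, adjusted p = 0.0244). The call was lost on leaving out wild type replicate 2 or 4, or knockout library 2 or 3 (0.0818, 0.0660, 0.0619 and 0.0608), and without both replicates 4 (0.0777). Psmb8, a second immunoproteasome subunit (34197721 to 34201454), measured 6.44, 8.68, 6.72 and 8.55 FPKM in the wild type and 6.45, 4.68, 5.92 and 4.09 FPKM in the knockout libraries. Knockout replicate 1 lay just above the lowest wild type value, and Psmb8 did not pass the test (log2 change -0.46 ± 0.14, adjusted p = 0.0634) except without that library (0.0308). Tap1, which encodes a subunit of the peptide transporter, starts 211 bases from Psmb9 on the opposite strand. Tap1 measured 2.44, 3.30, 3.20 and 3.08 FPKM in the wild type and 3.75, 2.56, 3.66 and 2.59 FPKM in the knockout libraries, with overlap (log2 change 0.04 ± 0.13, adjusted p = 0.870). Psmb9 and Tap1 overlap there by annotation, which limits the separation of their reads at that end.

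The genes of the MHC class I molecule itself were the most abundant of this group and were not called. B2m, the light chain (chromosome 2, 122147686 to 122153083), measured 135, 160, 153 and 176 FPKM in the wild type and 252, 173, 182 and 147 FPKM in the knockout libraries (log2 change 0.25 ± 0.15, adjusted p = 0.305). Only knockout replicates 1 and 3 exceeded the wild type range. H2-K1 (chromosome 17, 33996017 to 34000347) measured 30.4, 30.0, 27.5 and 41.3 FPKM in the wild type and 43.3, 31.3, 36.2 and 32.7 FPKM in the knockout libraries (log2 change 0.15 ± 0.14, adjusted p = 0.502). H2-D1 (chromosome 17, 35262730 to 35267499) measured 50.4, 50.9, 47.6 and 62.5 FPKM in the wild type and 67.8, 57.2, 66.3 and 61.0 FPKM in the knockout libraries (log2 change 0.25 ± 0.10, adjusted p = 0.118), and was called with array weights (0.0404) and without both replicates 4 (0.0434). Wild type replicate 4 was the highest wild type library for all 3 genes. H2-K1 and H2-D1 are close paralogs of other class I genes, so their levels are uncertain.

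**Figure D3:**
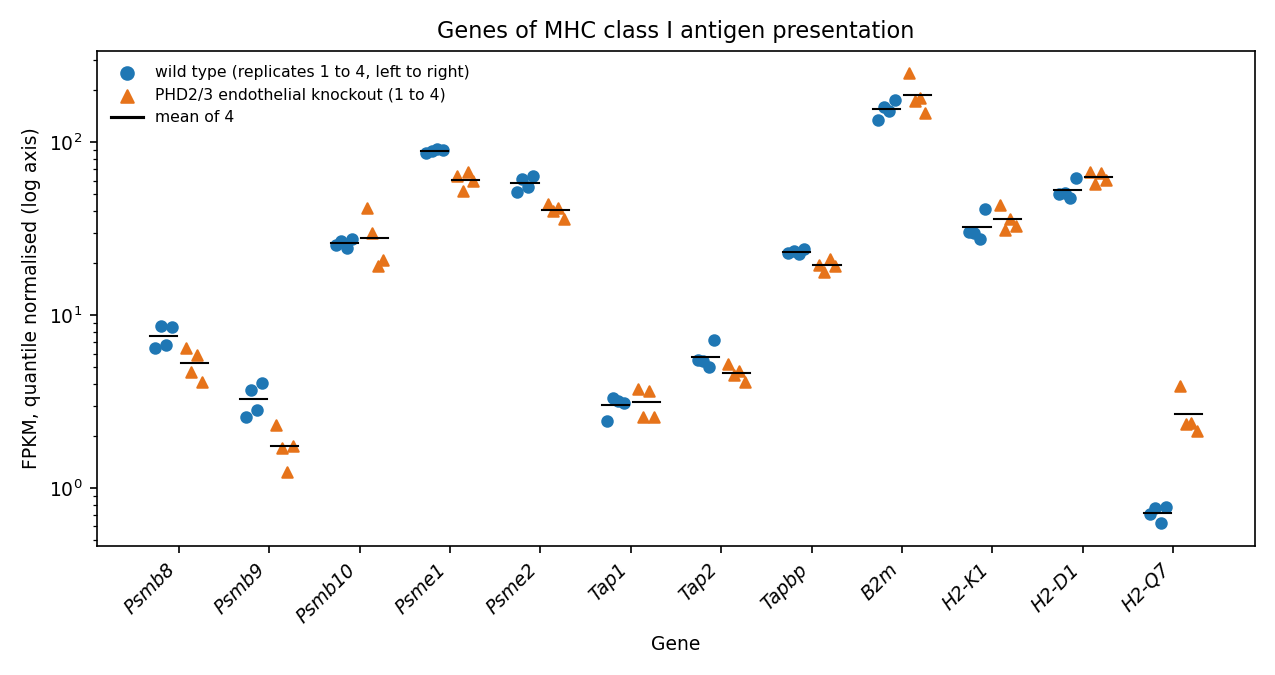
FPKM on a log axis of 12 genes of MHC class I presentation, with blue circles for wild type and orange triangles for knockout libraries in replicate order and black lines for means of 4. Psme1, Psme2 and Psmb9 lie lower in every knockout library and H2-Q7 higher, while Tap1, B2m and H2-K1 overlap between the groups.

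The rest of the class I pathway was read from a list of 27 further genes, of which 23 had a row and 18 were tested. Of these, 1 was raised (5.56%), 2 were lowered (11.1%) and 15 did not pass the test, where 6.15% of all tested genes were raised and 6.01% lowered. Psme1 and Psme2, which encode the PA28 activator that opens the proteasome, were at 86.5, 89.6, 91.9 and 90.3 FPKM and at 51.5, 61.3, 55.0 and 64.2 FPKM in wild type hearts. In knockout hearts Psme1 was at 63.7, 52.7, 67.8 and 59.6 FPKM and Psme2 at 44.0, 40.0, 41.6 and 36.2 FPKM. Both fell without overlap, Psme1 1.47-fold (log2 change -0.55 ± 0.09, adjusted p = 0.00460) and Psme2 1.43-fold (log2 change -0.51 ± 0.09, adjusted p = 0.00953), and both were called in every omission. At a minimum change of 1.5-fold both calls were lost, and that of Psme2 also with replicate number as a block (0.0543). H2-Q7, a nonclassical class I gene with close paralogs, measured 0.709, 0.771, 0.627 and 0.772 FPKM in the wild type and 3.89, 2.35, 2.37 and 2.14 FPKM in the knockout libraries, a 3.73-fold rise (log2 change 1.08 ± 0.14, adjusted p = 0.00207) called in every omission. Its wild type mean of 0.720 ± 0.0685 FPKM was under the filter, so H2-Q7 was tested through its knockout level alone; with no filter its adjusted p was 0.00614. The third immunoproteasome subunit gene, Psmb10, had widely spread knockout values (26.1 ± 1.39 and 27.9 ± 10.4 FPKM, adjusted p = 0.943). Tap2, the other transporter subunit, averaged 5.76 ± 0.946 against 4.65 ± 0.467 FPKM (adjusted p = 0.158). Tapbp, the tapasin gene, averaged 23.3 ± 0.704 against 19.4 ± 1.35 FPKM without overlap (adjusted p = 0.0519, but 0.0499 with median scaling, 0.0498 at a mean of at least 5 FPKM and 0.0369 with array weights).

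Upstream of the members, 19 of 20 listed genes of interferon receptors and signalling had a row and 17 were tested, of which 2 were raised, 2 lowered and 13 not called. The raised and lowered shares were 11.8% each, beside 6.15% and 6.01% of all tested genes. Irf3, the factor that first induces interferon beta, measured 18.2, 21.2, 18.5 and 21.0 FPKM in the wild type and 15.2, 12.3, 11.7 and 11.5 FPKM in the knockout libraries. It fell 1.56-fold without overlap (log2 change -0.61 ± 0.10, adjusted p = 0.00662) and was called in every omission. Irf2, an antagonist of IRF1, fell 1.35-fold to 6.08 ± 0.476 FPKM (adjusted p = 0.0174), a call lost on leaving out wild type replicate 2, or knockout library 2 (0.0547 and 0.0521). Stat3, which serves mainly interleukin-6 family cytokines, rose 1.46-fold to 43.4 ± 3.20 FPKM (adjusted p = 0.0205), a call lost on leaving out wild type replicate 2, or knockout library 3 (0.0687 and 0.0574). Ptpn11, a phosphatase of many receptor pathways, rose 1.99-fold to 66.0 ± 24.9 FPKM (adjusted p = 0.0341), a call lost in 6 of 8 omissions, with the exceptions of knockout replicates 1 and 4 (at most 0.0964, reached on leaving out wild type replicate 2), with no filter (0.0629) and without both replicates 4 (0.0567). The receptor genes were not called. Ifnar1 averaged 10.2 ± 0.473 against 9.96 ± 0.319 FPKM, Ifnar2 21.1 ± 0.783 against 17.7 ± 2.10 FPKM, Ifngr1 29.9 ± 1.18 against 26.0 ± 2.08 FPKM, and Ifngr2 39.9 ± 8.20 against 52.9 ± 5.30 FPKM, with adjusted p from 0.0818 to 0.828. Ifngr2 was called without wild type replicate 1 (0.0460) and Ifngr1 with array weights (0.0405). The kinase genes Jak1, Jak2 and Tyk2 were not called either (adjusted p from 0.124 to 0.556). Of 14 interferon genes, 13 were listed at 0 in every library and Ifnz reached at most 0.124 FPKM. A value of 0 in this table can be a failed estimate, since 4 of the 13 mitochondrially encoded genes are listed at 0 throughout.

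Genes that sense nucleic acid beyond the members numbered 20, of which 17 were tested, 3 were raised (17.6%), 0 lowered and 14 not called. Over all tested genes 6.15% were raised and 6.01% lowered. Eif2ak2, the RNA-dependent kinase PKR, measured 3.03, 2.57, 3.00 and 2.64 FPKM in the wild type and 5.11, 3.94, 4.63 and 3.73 FPKM in the knockout libraries, a 1.55-fold rise (log2 change 0.49 ± 0.10, adjusted p = 0.0164) lost without wild type replicate 2 (0.0587). The DNA sensors Ifi204 and Aim2, both in a cluster of related genes on chromosome 1, rose 1.88-fold and 1.81-fold to 1.82 ± 0.242 and 1.62 ± 0.354 FPKM (adjusted p = 0.0204 and 0.0328). Their wild type means, 0.966 and 0.895 FPKM, were under the filter, so both were tested through their knockout level alone; with no filter adjusted p was 0.0326 for Ifi204 and 0.0444 for Aim2. The call of Ifi204 was lost on leaving out wild type replicate 1, 2 or 4, or knockout library 3 (up to 0.0661), and that of Aim2 in 6 of 8 omissions, with the exceptions of knockout replicates 1 and 4 (at most 0.0810, reached on leaving out wild type replicate 3). Mndal, of the same cluster, fell 1.71-fold to 3.33 ± 0.900 FPKM (adjusted p = 0.0204), a call lost on leaving out wild type replicate 2, or knockout library 2 (0.0705 and 0.0573). Without both replicates 4 the calls of Ifi204, Aim2 and Mndal were lost (0.0663, 0.0703 and 0.0511), and with the Ddx3y covariate that of Aim2 (0.0570). The adaptors Mavs (15.1 ± 1.56 and 18.9 ± 1.61 FPKM, adjusted p = 0.0656) and Tmem173, which encodes STING (3.05 ± 0.307 and 2.96 ± 0.430 FPKM, adjusted p = 0.857), were not called. Mb21d1, which encodes the DNA sensor cGAS, lay under 1 FPKM in every library and was not tested with the others.

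Among 67 other interferon-stimulated genes, 65 had a row and 42 were tested, with 4 raised, 4 lowered and 34 not called. The raised and lowered shares were 9.52% each, beside 6.15% and 6.01% of all tested genes. This balance covers the tested genes only. Every knockout value lay above every wild type value in 5 of the 42 and below it in 6. Over all tested genes 10.3% lay above and 10.4% below. Of the 65 genes with a row, 13 lay above and 7 below, beside 1422 and 1397 of all 22518 genes in the table. Besides the Ifit paralogs, Gbp5, Gbp6, Mndal and Cmpk2, the called genes were Samd9l and Ly6e. Samd9l, an antiviral restriction factor named after its values were seen, rose 1.44-fold to 6.61 ± 1.01 FPKM (adjusted p = 0.0449), a call lost in all 8 omissions (0.0542 to 0.111), with no filter (0.0730), with array weights (0.0541) and without both replicates 4 (0.121). Ly6e, a membrane-anchored inhibitor of virus fusion, measured 78.7, 88.3, 80.5 and 94.0 FPKM in the wild type and 68.6, 49.3, 60.2 and 51.0 FPKM in the knockout libraries. It fell 1.49-fold without overlap (log2 change -0.58 ± 0.11, adjusted p = 0.0127) and was called in every omission. Its call was lost with replicate number as a block (0.0611) and at a minimum change of 1.5-fold. The chemokine gene Cxcl10, named after its values were seen, had a mean under 1 FPKM and was not tested with the others. It measured 0.248, 0.375, 0.453 and 0.321 FPKM in the wild type and 2.22, 0.824, 1.05 and 1.70 FPKM in the knockout libraries, without overlap, with a log2 change of 0.83 ± 0.17 when no filter was used (adjusted p = 0.0311). Ifi205, Oasl1, Apol9a and Oas3, also named after their values were seen, had means under 1 FPKM in both groups and were not tested with the others. They rose without overlap (adjusted p = 0.0122, 0.0390, 0.0454 and 0.0468 with no filter). Some levels were very low, since Apol9a went from 0.108 to 0.420 FPKM and Oas3 from 0.0255 to 0.168 FPKM. Tgtp1, likewise not tested, fell without overlap (0.0705). In the other pathway lists the untested Socs1 and H2-DMa also fell without overlap (0.0718 and 0.0548), and H2-Q6 rose (0.0485). These were named after their values were seen. Over the 5 tested lists of other pathway genes, MHC class II included, 12 of 99 were raised (12.1%) and 8 lowered (8.08%), beside 6.15% and 6.01% of all tested genes. The median log2 change of the 99 was -0.01. Of the called genes, 5 of the raised and 1 of the lowered had a group mean under 1 FPKM and were tested only through their higher group, so these counts are a description.

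The knockout libraries differed among themselves in these genes. Knockout replicate 1 was the highest of the 4 knockout libraries for 30 of the 39 genes (76.9%), where it was the highest for 30.4% of all tested genes, and knockout replicate 2 was the highest for 0. Over the 35 tested genes the median difference from the wild type mean on the log2 scale was 0.25 in knockout replicate 1, 0.03 in replicate 2, 0.12 in replicate 3 and -0.09 in replicate 4. The same median over all tested genes lay between -0.02 and 0.01 in every library. In knockout replicate 1 lymphocyte and dendritic cell markers summed to 5.26 FPKM, beside 1.41 to 3.89 FPKM in the other knockout hearts, and macrophage markers to 238 FPKM, beside 215 to 243 FPKM. Their part in this difference was not tested. Without knockout replicate 1 the number of raised genes was again 7 and that of lowered genes 5, with Psmb8 added. Over all 11390 genes tested, that omission took the raised from 701 to 934 and the lowered from 684 to 886. Within the wild type group replicate 4, the library high in airway markers, was the highest for 19 of the 39 genes (48.7%), where it was the highest for 27.3% of all tested genes. Without wild type replicate 4, 5 of the 35 tested genes were raised and 2 lowered, beside 353 and 391 of all 11390 genes tested.

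**Figure D4:**
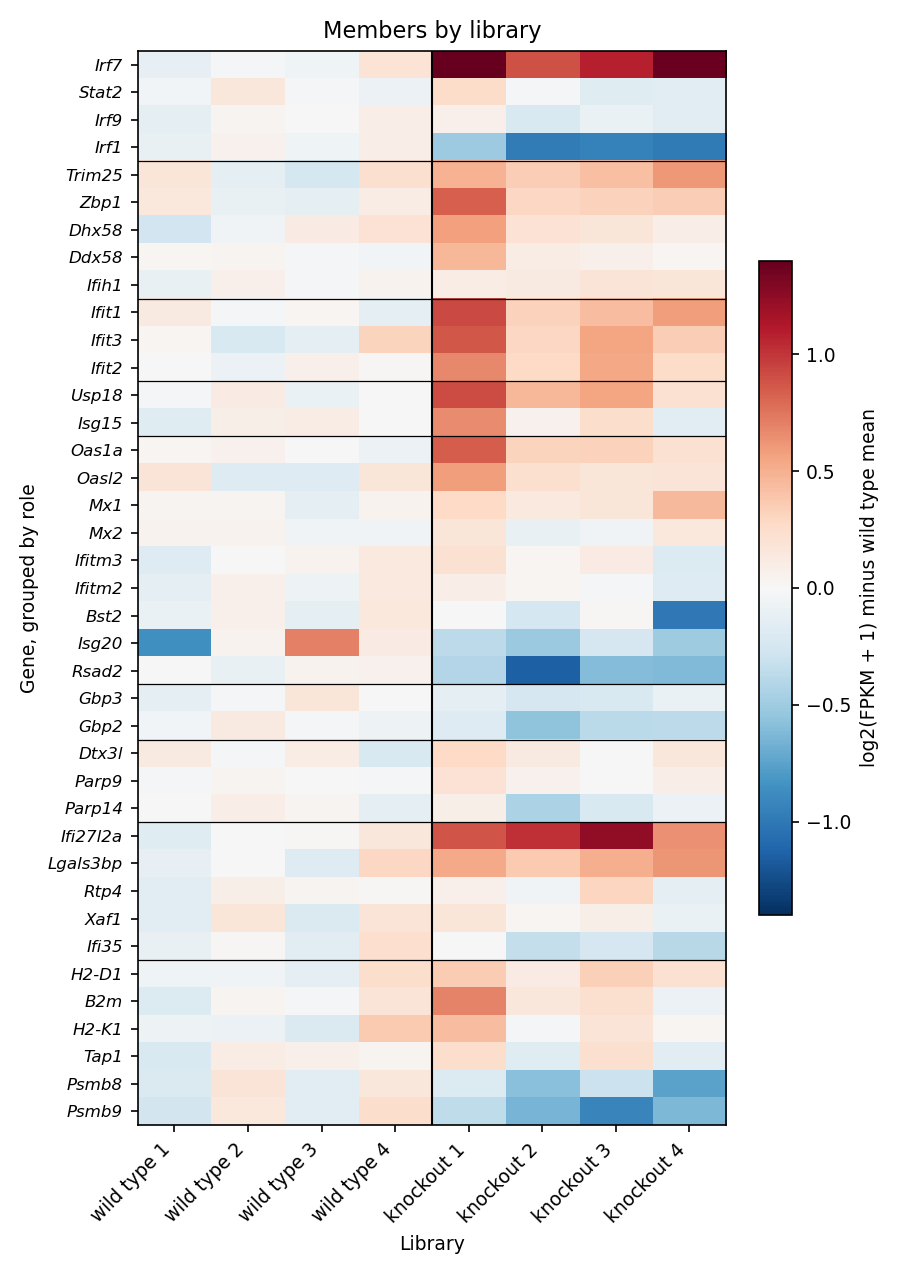
Difference of log2(FPKM + 1) from the wild type mean for the 39 genes (rows, grouped by role, with lines between roles) in the 8 libraries (columns); red is above and blue below the wild type mean. Irf7 and Ifi27l2a are red and Irf1 and Rsad2 blue in every knockout library, and knockout replicate 1 holds the highest knockout value for 30 of the 39 genes.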

How the data were processed

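Total heart RNA was purified on columns and prepared as TruSeq libraries for Illumina sequencing, per the labels' protocols. The submitters' processing notes name TopHat2, Cufflinks and the mm10 build, without versions. Annotation and strandedness were not found in the sources. The authors deposited 1 value for each gene in each library, taken here as linear FPKM, the unit that Cufflinks reports. Their table was quantile normalised, with 1 shared value at each of the 39 highest ranks, so depth is unknown.

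The 11390 genes averaging 1 FPKM or more were compared as log2(FPKM + 1) with limma 3.58.1 in R 4.3.3 (lmFit, then eBayes with trend and robust; no covariate). Benjamini-Hochberg adjustment covered all of these genes, and calls are at adjusted p under 0.05. The functions were tested on simulated data. Coordinates are from GENCODE M21 and promoters from RefSeq; older symbols were matched through RefSeq. Members and lists were chosen with earlier results of these data known. Per-library values are given for called members, the 4 others with the smallest p and a set of core genes; up to 6 called genes of each other pathway list and a set of core genes are named. Exceptions are said to have been named, or shown per library (Zbp1 and Mx1), after their values were seen. Of the core genes, 1 is not reported here but remains counted in its list. Alternatives changed the pseudocount, filter, scaling, variance model, weights, threshold, covariate or replicate block, or left out libraries. Plots were drawn in Python 3.11.15 with pandas 2.3.3 and matplotlib 3.10.9.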

Additional observations from a re-analysis of the deposited data

Results flagged for a closer look

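In 11 of 158 groups of 4 samples (2 per gene for the named genes and Scgb1a1), the highest or lowest sample stood apart from the other 3 by more than Dixon's 95% critical value, which chance passes in about 1 of 20 groups. Knockout replicate 1 was the sample for Irf1 (6.44 FPKM, others 4.32 to 4.49), Ddx58 (6.30, others 4.39 to 4.70), Oasl2 (7.51, others 5.37 to 5.62), Oas1a (2.37, others 1.16 to 1.33), Zbp1 (1.07, others 0.423 to 0.472) and H2-Q7 (3.89, others 2.14 to 2.37), and it was the highest knockout library each time. Knockout replicate 4 stood apart for the macrophage lysozyme gene Lyz2 (79.5 FPKM, others 60.5 to 62.4). Wild type replicate 4 stood apart for Scgb1a1 (1030.4 FPKM, others at most 0.323) and Cd74 (11.3 FPKM, others 7.06 to 7.53). The others were Mx1 in wild type replicate 3 (0.0670 FPKM, others 0.198 to 0.209) and Mb21d1 in wild type replicate 2 (0.703 FPKM, others 0.435 to 0.467).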

How the results depend on the processing

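Of the 11 called genes among the 39, 4 (Irf1, Irf7, Rsad2 and Ifi27l2a) were called in all 8 omissions of 1 library and under every other alternative in which they were tested, and no called change reversed its sign under any of 19 alternatives. With 1 library left out, 2 to 7 genes of the list were raised (2 without wild type replicate 2 or 3, 4 without knockout replicate 3) and 2 to 5 lowered (2 on leaving out wild type replicate 2 or 4, or knockout replicate 2 or 3), and of the other pathway genes 2 to 11 were raised (2 without wild type replicate 2, 5 to 7 without wild type replicate 1, 3 or 4 and without knockout replicate 2 or 3) and 4 to 10 lowered (4 without replicate 2 of either group). Without the filter 4 members were raised; at a mean of at least 5 FPKM, which left 18 members tested, 4 were raised and 1 lowered, and 4 other pathway genes were raised. A minimum change of 1.5-fold left 2 members raised (Irf7 and Ifi27l2a). This minimum was set on the log2(FPKM + 1) change and not on the ratio of means, so it is stricter for low genes. Of the other pathway genes it left 5 raised (Ptpn11, Gbp6, H2-Q7, H2-Ab1 and Ctss) and 2 lowered (Irf3 and Mndal). Among the members it ended the calls of Ifit1, Ifit2, Usp18, Trim25, Lgals3bp and Gbp2. By the ratio of means Ifit1 was nevertheless at 1.97-fold and Usp18 at 1.78-fold. Array weights lowered 13 other pathway genes. Without both replicates 4, 2 members were lowered. The replicate block left 2 members lowered (Irf1 and Rsad2). Of the other pathway genes it left 5 raised (Stat3, Eif2ak2, H2-Q7, H2-Ab1 and Ctss) and 2 lowered (Irf3 and Psme1). Among the members it ended the calls of Ifit2, Usp18, Gbp2 and Psmb9. The replicate numbers share no stated source. Deviations of same-numbered samples correlated at -0.23, 0.01, 0.10 and -0.10, and 1 of 4 wild type samples correlated best with its own number. Causes were not tested. Over all genes 1385 were called, 613 with the block, 2028 with array weights, 577 at the minimum change, and from 575 when wild type replicate 2 was left out to 1820 when knockout replicate 1 was. The precision is limited by 4 libraries per group, and depth is unknown.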

Other observations

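MHC class II genes serve antigen-presenting cells in showing peptides to helper T cells. Of 11 listed genes 5 were tested, 2 were raised, 0 were lowered and 3 did not pass the test, where 6.15% of all tested genes were raised and 6.01% lowered. H2-Ab1, a class II beta chain, measured 2.04, 2.43, 1.61 and 3.98 FPKM in the wild type and 6.27, 5.48, 5.16 and 5.32 FPKM in the knockout libraries, a 2.21-fold rise without overlap (log2 change 0.94 ± 0.18, adjusted p = 0.0104) that was called in every omission. Its partner chain H2-Aa averaged 3.53 ± 1.26 FPKM without and 2.45 ± 0.174 FPKM with the knockout (adjusted p = 0.193), H2-Eb1 at 2.74 ± 0.748 and 1.89 ± 0.322 FPKM (adjusted p = 0.125) and the invariant chain Cd74 at 8.34 ± 2.01 and 6.55 ± 2.43 FPKM (adjusted p = 0.343). H2-Aa, H2-Eb1, Cd74 and Lyz2 were picked with their values in view. The class II transactivator Ciita lay under 1 FPKM in every library. Ctss, the protease that trims the invariant chain, rose 1.55-fold to 14.2 ± 1.30 FPKM (adjusted p = 0.0169), a call lost without wild type replicate 2 (0.0590). Lyz2, a lysozyme of macrophages, rose 1.60-fold to 65.9 ± 9.07 FPKM (adjusted p = 0.00453).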
